A study of Mus musculus with 8 samples.

Results

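The platelet-derived growth factor (PDGF) system of cultured mouse heart fibroblasts was described here across 10 genes, chosen by name among the 22274 genes of the count table. They were the ligand genes Pdgfa, Pdgfb, Pdgfc and Pdgfd, the receptor genes Pdgfra and Pdgfrb, the receptor-like gene Pdgfrl, and the pericyte markers Cspg4, Rgs5 and Mcam. All 10 passed the filter on low counts. The RNA came from primary murine cardiac fibroblasts, for which the labels give no strain, sex or age, and all libraries were from cells given TGF-β (5 ng/ml, 24 h), a cytokine under which fibroblasts turn into contractile, matrix-secreting myofibroblasts. Of the 8 libraries, 4 were labelled GFP and came from cells transduced with the empty control vector (Ad-EV in the study), and 4 were labelled OEIRF7 and came from cells transduced with a vector for interferon regulatory factor 7 (IRF7). The study's text names an adenovirus and the series description an adeno-associated virus. No library was from cells without virus or without TGF-β, so the comparison was between 2 vectors in stimulated cells. The labels do not say whether replicates were separate cultures or animals, so the tests measure the spread between these libraries.

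PDGFs are secreted dimers that drive division and migration of mesenchymal cells through a pair of receptor tyrosine kinases, PDGFRα and PDGFRβ. PDGF-A and PDGF-C act mainly through PDGFRα, PDGF-D mainly through PDGFRβ, and PDGF-B through both receptors. In the heart PDGFRα marks resident fibroblasts, while PDGFRβ, with NG2 (the product of Cspg4), RGS5 and CD146 (the product of Mcam), marks pericytes, the contractile cells that wrap capillaries. PDGF-B from endothelial cells recruits pericytes through PDGFRβ.

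Total counts lay between 24454801 and 28658826 per library. Mouse Irf7, the check of the label, had 106.8, 147.4, 92.0 and 125.5 CPM (counts scaled to library size after trimmed mean of M-values, TMM, normalization) in the GFP libraries and 14.9, 14.5, 14.9 and 16.4 CPM in the OEIRF7 libraries. It was thus lower under OEIRF7 (log2 fold change -2.96, SE 0.121, quasi-likelihood adjusted p = 7.7e-11 by edgeR). The study names the adenovirus for these libraries, and the IRF7 adenovirus in its reagent list carries the human gene, which counts of mouse genes do not measure, so with that virus Irf7 does not check the label. With the adeno-associated virus of the series description, for which the list names a mouse insert, the fall would go against the label. The files do not show which, and every direction here is between the libraries as they are labelled. The 11 fibroblast markers summed to between 28613.0 and 30126.1 CPM in the GFP libraries and between 25830.8 and 27833.4 in the OEIRF7 libraries, without overlap. Much of the sum was Fn1, with means of 13267.5 and 11908.4 CPM. In all 8 libraries 6 of 7 cardiomyocyte markers stayed below 1 CPM, while the other, Tnnt2, fell by 0.54 on the log2 scale. Endothelial, macrophage and glial markers were present at lower levels, given beside the results that they touch. In RNA from a whole culture, fewer cells of a type and less RNA per cell cannot be told apart.

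Of the 10 genes, 5 were higher and 4 lower in the OEIRF7 libraries, and Pdgfrl did not pass the test. Cspg4 rose the most, by 2.83-fold, and Rgs5, Pdgfc, Pdgfb and Pdgfra rose by 1.66-, 1.59-, 1.24- and 1.19-fold. Pdgfd and Mcam fell to 0.507 and 0.513 of their level with the control vector, Pdgfa to 0.771 and Pdgfrb to 0.898. Ligands, receptors and pericyte markers each had members in both directions. Called means an adjusted p under 0.05 in edgeR's quasi-likelihood test over all 13533 tested genes, of which 58.9% were called, 29.0% higher and 29.9% lower, so a call of a single gene is a common event in this comparison. In 7 of the 10 genes the groups did not overlap, against 53.8% of all tested genes. The study's methods set the line at a fold change past 1.5 or below 0.66 with an unadjusted p under 0.05. There 5 genes passed (Cspg4, Rgs5, Pdgfc, Pdgfd and Mcam), against 19.0% of all tested genes. Changes at least as large in size as that of Cspg4 were seen in 3.78% of tested genes, against 8.95% for Pdgfd, 9.22% for Mcam, 14.7% for Rgs5 and 17.0% for Pdgfc. For Pdgfrb the share was 66.5%, so its change was smaller than that of most genes.

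**Figure D1:**
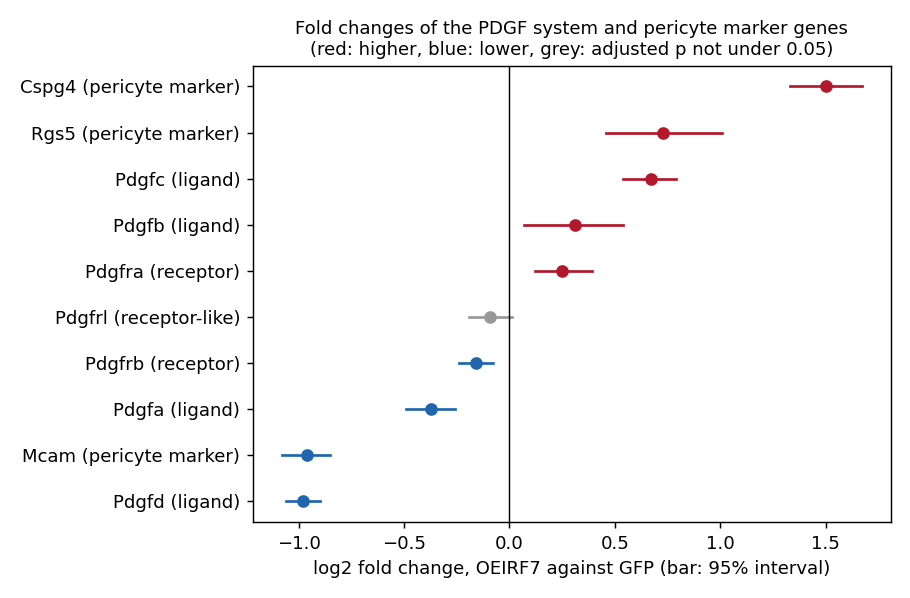
Log2 fold change of each of the 10 genes between the OEIRF7 and the GFP libraries (horizontal axis; points, edgeR estimate; bars, 95% interval; n = 4 libraries per group). Cspg4 lies farthest to the right at 1.5, Pdgfd and Mcam farthest to the left at -0.98 and -0.96, and the interval of Pdgfrl spans 0.

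Among the ligands, Pdgfd showed the largest change. Pdgfd (ENSMUSG00000032006, GRCm38 chromosome 9, 6168584 to 6378850, plus strand) encodes PDGF-D, a ligand secreted in a latent form that must be cleaved to act. It had 97.9, 92.9, 90.4 and 90.0 CPM in the GFP libraries and 47.4, 47.8, 46.9 and 46.2 CPM in the OEIRF7 libraries. The groups lay far apart, and the OEIRF7 libraries were almost alike. Its log2 fold change was -0.98 (SE 0.0387, quasi-likelihood adjusted p = 5.6e-11 by edgeR), and leaving out 1 library at a time kept it between -1.0 and -0.96.

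Pdgfc (ENSMUSG00000028019, chromosome 3, 81036416 to 81214040, plus strand), whose product PDGF-C is likewise latent until cleaved, moved the other way. It had 17.4, 15.9, 15.8 and 17.3 CPM in the GFP libraries and 25.9, 27.5, 26.1 and 25.7 CPM in the OEIRF7 libraries. All OEIRF7 libraries were above all GFP libraries, with a log2 fold change of 0.67 (SE 0.0576, quasi-likelihood adjusted p = 1.5e-07 by edgeR).

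Pdgfa (ENSMUSG00000025856, chromosome 5, 138976014 to 138997370, minus strand) encodes PDGF-A, a ligand of PDGFRα. It had 42.7, 45.3, 40.6 and 42.5 CPM in the GFP libraries and 31.4, 35.7, 32.0 and 32.8 CPM in the OEIRF7 libraries. The groups did not overlap, and the fall was by 0.37 on the log2 scale (SE 0.0524, quasi-likelihood adjusted p = 2.2e-05 by edgeR).

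Pdgfb (ENSMUSG00000000489, chromosome 15, 79995874 to 80014977, minus strand) encodes PDGF-B, the ligand that binds both receptors. It had 9.55, 10.3, 10.6 and 10.9 CPM in the GFP libraries and 12.5, 14.3, 9.82 and 14.4 CPM in the OEIRF7 libraries. OEIRF7 replicate 3 lay within the range of the GFP libraries, and the other OEIRF7 libraries were above it. Its log2 fold change of 0.31 (SE 0.109, quasi-likelihood adjusted p = 0.025 by edgeR) was the least firm of the 9 calls. Without GFP replicate 1, OEIRF7 replicate 2 or OEIRF7 replicate 4 the adjusted p was 0.075, 0.089 and 0.084 (edgeR), with log2 fold changes of 0.27, 0.24 and 0.25. Endothelial cells and macrophages are known sources of PDGF-B. The summed CPM of 10 endothelial markers was between 246.3 and 256.8 in the GFP libraries and between 250.3 and 277.4 in the OEIRF7 libraries, and that of 7 macrophage markers was between 268.3 and 318.9 against 326.0 and 363.3. Of the endothelial markers 4 were higher, namely Kdr, Vwf, Cldn5 and Emcn with log2 fold changes of 0.79, 0.49, 0.48 and 0.29. Cdh5 was lower, with -0.11, a call that 5 of the 8 fits without 1 library did not keep (edgeR). Of the macrophage markers 3 were higher (42.9%, against 29.0% of all tested genes) and none lower, with no lower marker at an unadjusted p under 0.05 either. Adgre1, Lyz2 and Cd68 rose by 0.44, 0.22 and 0.21 on the log2 scale, and the other 4 were not called. Much of the macrophage sum was Lyz2, with means of 201.7 CPM in the GFP and 235.3 CPM in the OEIRF7 libraries. The part of these cell types in the rise of Pdgfb was not tested.

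**Figure D2:**
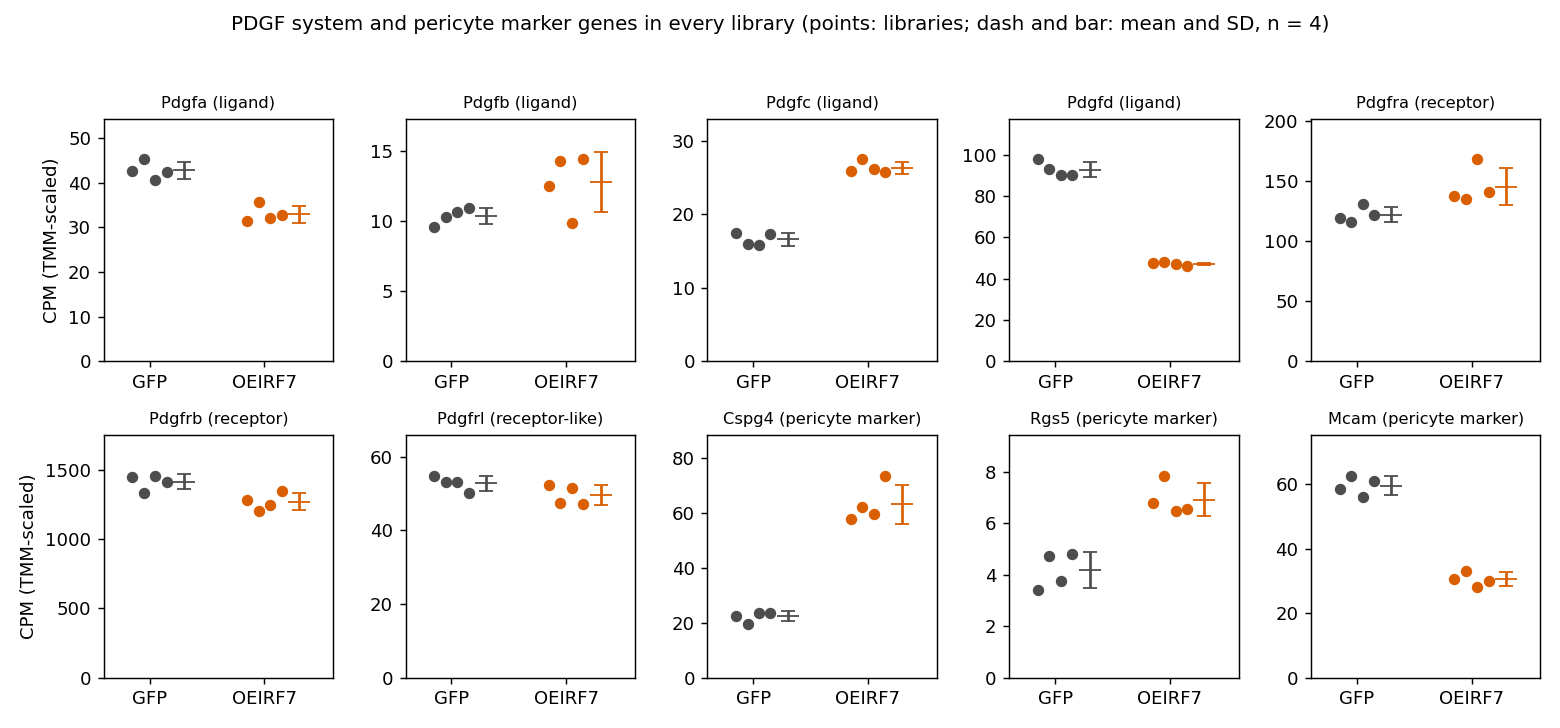
CPM of each gene in the 4 GFP and the 4 OEIRF7 libraries (vertical axis from 0, 1 panel per gene; points, libraries; dash and bar, mean and SD). The groups are apart in 7 panels and overlap for Pdgfb, Pdgfrb and Pdgfrl.

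Levels of different genes were compared per length, as the authors' FPKM. In the GFP libraries Pdgfd had 34.8 ± 1.89 FPKM (SD, n = 4) and Pdgfa 23.9 ± 1.14, while Pdgfc had 5.0 ± 0.262 and Pdgfb 3.54 ± 0.284. In the OEIRF7 libraries Pdgfa had 19.1 ± 1.24 FPKM (SD, n = 4), Pdgfd 18 ± 0.289, Pdgfc 8.35 ± 0.245 and Pdgfb 4.46 ± 0.614. Pdgfd was thus the most abundant ligand transcript with the control vector, above Pdgfa in every library. Under OEIRF7 Pdgfa stood marginally above Pdgfd, within each of the 4 libraries, although their ranges over libraries overlapped.

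The summed FPKM of the 4 ligand genes lay between 64.5 and 70.4 in the GFP libraries and between 47.7 and 52.3 in the OEIRF7 libraries. The groups did not overlap, with a difference of -0.43 on the log2 scale (two-sided exact permutation p = 0.0286, which is the lowest possible with 4 against 4). The ligand sum was chosen with earlier results of these data known, and Pdgfd, its largest part in the GFP libraries, was itself apart between the groups. Pdgfd made up 51.7% ± 1.29 (SD, n = 4) of this sum in the GFP libraries and 36.1% ± 1.49 in the OEIRF7 libraries. The share of Pdgfc went from 7.44% ± 0.370 to 16.8% ± 0.326 (SD, n = 4 per group), that of Pdgfb from 5.27% ± 0.586 to 8.92% ± 0.968, and that of Pdgfa from 35.5% ± 0.722 to 38.2% ± 1.18. The ligands were also grouped in pairs, a grouping made after the values were seen and not tested. Pdgfb, whose product binds both receptors, was counted with Pdgfd only. Pdgfa and Pdgfc summed to 28.9 ± 1.3 FPKM in the GFP libraries and 27.4 ± 1.47 in the OEIRF7 libraries (SD, n = 4 per group). Pdgfb and Pdgfd summed to 38.3 ± 1.62 FPKM against 22.4 ± 0.729, a sum made up mostly of Pdgfd, while Pdgfb itself rose. The sums of Pdgfa and Pdgfc overlapped between the groups, as their changes went in opposite directions, and those of Pdgfb and Pdgfd did not overlap.

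**Figure D3:**
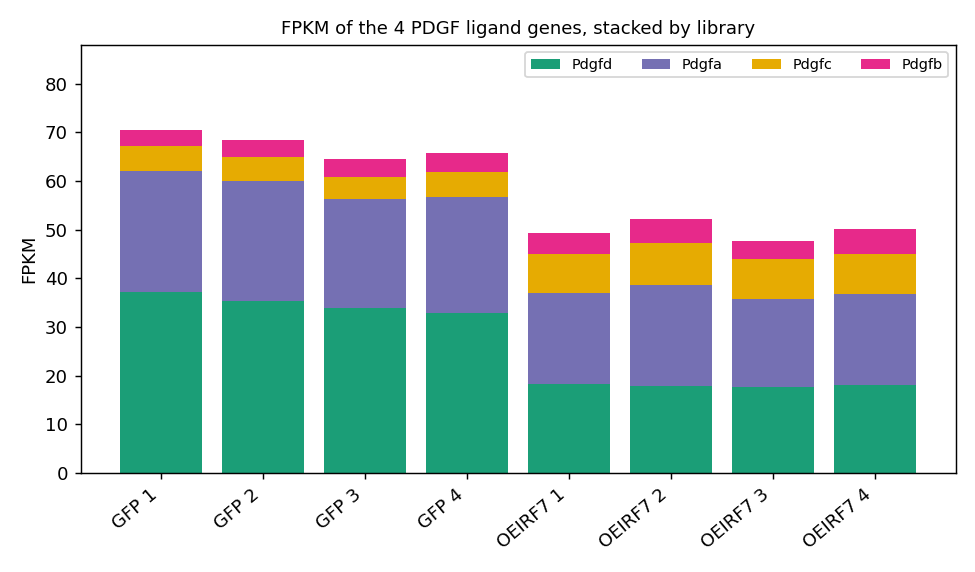
FPKM of Pdgfd, Pdgfa, Pdgfc and Pdgfb stacked for each of the 8 libraries (vertical axis, FPKM from 0). The stacks of the GFP libraries reach 64.5 to 70.4 and those of the OEIRF7 libraries 47.7 to 52.3, and the Pdgfd segment is the part that differs most.

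The receptors changed by far less than Pdgfd. Pdgfra (ENSMUSG00000029231, chromosome 5, 75152292 to 75198215, plus strand) encodes PDGFRα. It had 118.9, 116.0, 130.6 and 121.6 CPM in the GFP libraries and 137.3, 135.0, 168.1 and 140.8 CPM in the OEIRF7 libraries. The groups did not overlap, though the nearest libraries of the groups were close, and OEIRF7 replicate 3 was above the other libraries. The log2 fold change was 0.25 (SE 0.0619, quasi-likelihood adjusted p = 0.0025 by edgeR), and it was between 0.18 and 0.29 without 1 library at a time.

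Pdgfrb (ENSMUSG00000024620, chromosome 18, 61045150 to 61085061, plus strand) encodes PDGFRβ. It had 1447.9, 1333.0, 1455.8 and 1413.6 CPM in the GFP libraries and 1277.3, 1204.0, 1245.7 and 1346.5 CPM in the OEIRF7 libraries. OEIRF7 replicate 4 was above GFP replicate 2, so the groups overlapped by a single pair of libraries. The fall was by 0.16 on the log2 scale (SE 0.0371, quasi-likelihood adjusted p = 0.0023 by edgeR), with a 95% interval of -0.24 to -0.08.

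Pdgfrl (ENSMUSG00000031595, chromosome 8, 40926212 to 40990785, plus strand) encodes a secreted protein that resembles the outer part of a PDGF receptor and has no kinase. It had 54.9, 53.2, 53.3 and 50.1 CPM in the GFP libraries and 52.3, 47.4, 51.5 and 47.2 CPM in the OEIRF7 libraries. The groups overlapped, and the log2 fold change of -0.09 did not pass the test (SE 0.0470, quasi-likelihood adjusted p = 0.10 by edgeR). Its 95% interval, -0.19 to 0.01, leaves room for a fall to 0.874 of the control level but for almost no rise.

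On the FPKM scale Pdgfrb stood far above every other gene described here, with 258.7 ± 10.1 FPKM in the GFP libraries and 236.7 ± 11.2 in the OEIRF7 libraries (SD, n = 4 per group), against 22.3 ± 1.85 and 25.9 ± 1.62 for Pdgfra. The ratio of Pdgfra to Pdgfrb FPKM lay between 0.0776 and 0.0917 in the GFP libraries and between 0.10 and 0.122 in the OEIRF7 libraries. It was 1.27-fold higher under OEIRF7 with no overlap (two-sided exact permutation p = 0.0286 on the log2 ratio). The summed FPKM of the receptors was 281.0 ± 11.1 against 262.6 ± 10.9 (SD, n = 4 per group), and this difference of -0.10 on the log2 scale did not pass the test (exact two-sided permutation test, p = 0.0571). This sum, too, was chosen with earlier results of these data known.

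In the GFP libraries the order of mean FPKM was Pdgfrb, Pdgfd, Pdgfrl, Pdgfa, Pdgfra, Mcam, Pdgfc, Pdgfb, Cspg4 and Rgs5. The ranges over libraries of Pdgfd and Pdgfrl, of Pdgfa and Pdgfra, and of Pdgfra and Mcam overlapped, and the other neighbours were apart. In the OEIRF7 libraries the order was Pdgfrb, Pdgfrl, Pdgfra, Pdgfa, Pdgfd, Mcam, Pdgfc, Cspg4, Pdgfb and Rgs5, where Pdgfa and Pdgfd overlapped, as did Pdgfc and Cspg4. Between the groups Pdgfd moved from the second to the fifth place and Cspg4 passed Pdgfb.

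**Figure D4:**
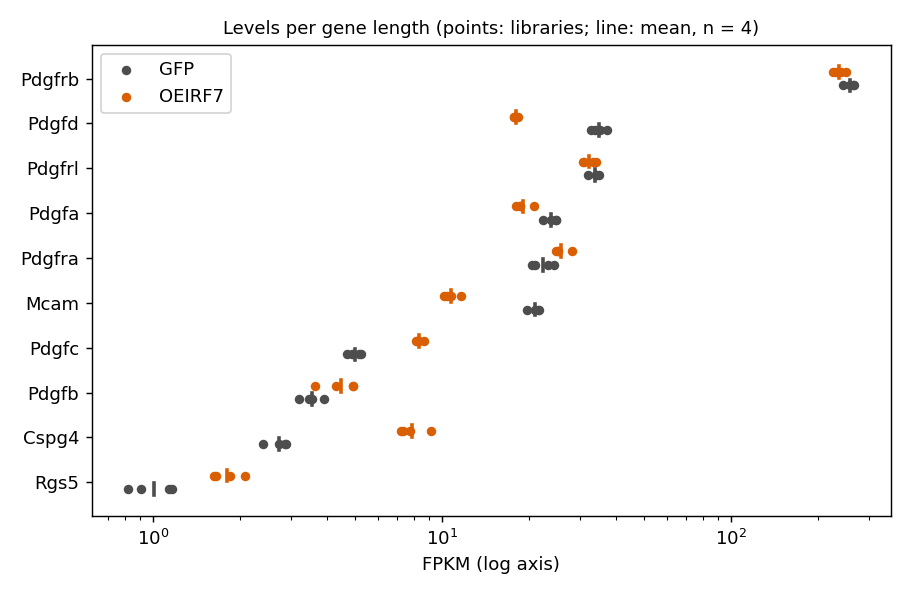
FPKM of the 10 genes on a log axis (points, libraries; vertical line, mean of 4; grey, GFP; orange, OEIRF7). Pdgfrb stands at 225.43 to 267.04 FPKM in all libraries, Rgs5 at 0.82 to 2.08, and the groups are farthest apart for Cspg4, Pdgfd and Mcam.

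The pericyte markers did not move together. Cspg4 (ENSMUSG00000032911, chromosome 9, 56865033 to 56899870, plus strand) encodes NG2, a proteoglycan of the cell surface that binds PDGF-A and is found on pericytes and glial precursors. It had 22.5, 19.7, 23.5 and 23.7 CPM in the GFP libraries and 57.8, 62.2, 59.6 and 73.7 CPM in the OEIRF7 libraries. Every OEIRF7 library was far above every GFP library, with a log2 fold change of 1.5 (SE 0.0777, quasi-likelihood adjusted p = 6.9e-10 by edgeR). Of 5 Schwann and glial markers, 4 were tested and none was called in either direction (edgeR), while without GFP replicate 2 there was 1 called higher. Their summed CPM was between 21.9 and 27.8 in the GFP libraries and between 22.8 and 26.1 in the OEIRF7 libraries.

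Rgs5 (ENSMUSG00000026678, chromosome 1, 169655501 to 169695813, plus strand) encodes a regulator of G-protein signalling that is a marker of pericytes. It was the least abundant of the 10 genes, with 91, 118, 93 and 126 counts in the GFP libraries and 175, 228, 165 and 162 counts in the OEIRF7 libraries. In CPM this was 3.40, 4.73, 3.77 and 4.81 against 6.78, 7.86, 6.48 and 6.57, without overlap. The log2 fold change of 0.73 had the widest interval of the 10 genes, 0.46 to 1.01 (SE 0.128, quasi-likelihood adjusted p = 0.00017 by edgeR). On the log2(FPKM + 1) scale, which understates changes of low genes, limma gave 0.48.

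Mcam (ENSMUSG00000032135, chromosome 9, 44134469 to 44142727, plus strand) encodes CD146, an adhesion molecule of pericytes, smooth muscle and endothelium. It had 58.5, 62.6, 55.9 and 61.1 CPM in the GFP libraries and 30.6, 33.2, 28.1 and 30.1 CPM in the OEIRF7 libraries. The groups lay far apart, with a log2 fold change of -0.96 (SE 0.0543, quasi-likelihood adjusted p = 1.7e-09 by edgeR). Of the 10 endothelial markers 4 were higher, 1 was lower and 5 were not called (edgeR). Over all tested genes 29.0% were higher and 29.9% lower. The median log2 fold change of the endothelial markers was 0.14 (0.00 over all tested genes). The 8 smooth muscle markers were all lower (edgeR), against 29.9% of all tested genes. Their summed CPM fell from between 2917.9 and 3099.7 to between 1003.2 and 1148.9. Acta2, smooth muscle actin and a marker of myofibroblasts, fell from 2060.7 ± 74.3 to 580.8 ± 46.1 CPM (n = 4 per group, SD). Lmod1, Synpo2 and Cnn1, further genes of the contractile apparatus of smooth muscle, fell by 2.69, 1.47 and 1.30 on the log2 scale. The part of these cell types in the fall of Mcam was not tested.

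A window before the transcription start is shown for Cspg4, the gene that rose the most, and for the ligand genes Pdgfc and Pdgfd, which moved in opposite directions. RefSeq start sites of GRCm38.p6 were found for 7 of the 10 genes. Each window begins 250 bases before the start site and ends where the first exon in GENCODE M21 begins, or at the start site where that comes first. They are chr9:56864854-56865032 for Cspg4, chr3:81036166-81036415 for Pdgfc and chr9:6168236-6168485 for Pdgfd, all on the plus strand. The bases are written 5′ to 3′ with GC boxes (GGGCGG or its reverse complement) in capitals.
Cspg4: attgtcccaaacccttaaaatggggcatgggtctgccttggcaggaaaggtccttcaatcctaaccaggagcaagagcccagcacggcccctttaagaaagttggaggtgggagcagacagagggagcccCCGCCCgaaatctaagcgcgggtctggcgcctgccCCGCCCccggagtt
Pdgfc: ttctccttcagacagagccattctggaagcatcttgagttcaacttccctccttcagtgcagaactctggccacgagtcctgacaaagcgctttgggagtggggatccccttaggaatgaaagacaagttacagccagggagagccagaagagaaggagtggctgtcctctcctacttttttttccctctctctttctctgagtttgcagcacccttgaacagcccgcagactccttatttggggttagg
Pdgfd: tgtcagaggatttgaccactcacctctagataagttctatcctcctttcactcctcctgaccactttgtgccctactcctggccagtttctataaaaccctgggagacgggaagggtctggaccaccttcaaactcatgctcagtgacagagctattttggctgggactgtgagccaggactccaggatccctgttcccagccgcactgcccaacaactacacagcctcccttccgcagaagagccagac

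The 250 bases before the start were searched on both strands for the IRF pair GAAANNGAAA, the AP-1 site TGANTCA, the SMAD palindrome GTCTAGAC, the EGR site GCGTGGGCG and the GC box GGGCGG. The only motif found in these genes was the GC box, which 32.7% of all 32851 windows of this length hold. Cspg4 had 2 copies, Mcam 5, and Pdgfa 1 and 2 at its 2 start sites, while Pdgfc, Pdgfd, Pdgfra and Rgs5 had none. Genes that rose and genes that fell were found both with and without it. The IRF pair is held by 2.98% of all windows, the AP-1 site by 6.75%, the EGR site by 0.536% and the SMAD palindrome by 0.167%, and in the windows of these 7 genes the letters do not occur. The GC content of the windows shown was 60.3% for Cspg4, 50.8% for Pdgfc and 53.6% for Pdgfd.

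Genes around the ligands and receptors were counted in lists, to be read beside all tested genes, of which 29.0% were higher and 29.9% lower. Of 8 genes for ligand processing and co-receptors, 3 were higher (37.5%) and 2 lower (25.0%). The median log2 fold change was 0.11 (0.00 over all tested genes). Plau, the urokinase that can activate PDGF-D, had 25.2 ± 2.26 CPM with the control vector and 49.0 ± 5.05 under OEIRF7 (SD, n = 4 per group), a log2 rise of 0.96, while Pdgfd itself fell. Lrp1, a scavenger receptor that binds PDGFRβ, rose by 0.20 and had 3455.0 ± 119.2 CPM in the GFP libraries and 3980.1 ± 118.3 in the OEIRF7 libraries. Nrp1, a co-receptor of growth factors, fell by 0.39, and Pcsk5, a proprotein convertase, fell by 0.25. Plat, the activator of PDGF-C, had a log2 fold change of 0.13 and did not pass (adjusted p = 0.44, edgeR).

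Of 29 adaptors and effectors that act next to the receptors, 10 were higher and 13 lower. The shares were 34.5% and 44.8%, against 29.0% and 29.9% of all tested genes. The median log2 fold change was 0.00. Nras, a small GTPase, had 134.4 ± 4.41 CPM against 67.2 ± 2.75 (SD, n = 4 per group, log2 fold change -1.0, adjusted p = 5.7e-11 from edgeR). The kinase gene Map2k1 had 184.6 ± 9.61 CPM against 297.3 ± 15.8, a log2 rise of 0.69. Rasa1, a RAS GTPase-activating protein that docks on PDGFRβ, rose by 0.63, and the docking protein gene Gab1 fell by 0.60. The other called members of this list changed by less than Gab1.

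Of 10 genes that limit PDGF receptors, 9 were tested, of which 6 were higher and none lower (edgeR; at an unadjusted p under 0.05 none was lower either, and limma on log2(FPKM + 1) and DESeq2 gave 0). The share higher was 66.7%, against 29.0% of all tested genes, and the median log2 fold change was 0.23. Socs3, an inhibitor of cytokine signalling, rose by 1.03 from 9.40 ± 0.928 to 19.3 ± 1.15 CPM (n = 4 per group, SD). Cblb, a ubiquitin ligase of receptor kinases, rose by 0.68, the phosphatase gene Ptpn12 by 0.57 and the phosphatase gene Acp1 by 0.23.

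Of 14 immediate early genes that PDGF can induce in fibroblasts, 12 were higher and 2 lower. The shares were 85.7% and 14.3%, against 29.0% and 29.9% of all tested genes. The median log2 fold change was 1.09. Ccl2, a monocyte chemokine, rose by 3.14 from 37.8 ± 2.37 to 333.2 ± 42.2 CPM (n = 4 per group, SD). The transcription factor genes Fosl1, Egr2 and Fosb rose by 2.21, 1.62 and 1.55. Srf and Dusp1, named because they went against the others, fell by 0.23 and 0.53. Many signals other than PDGF induce these genes, and the libraries hold no PDGF treatment.

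Among 14 other pericyte markers, 12 were tested, of which 6 were higher and 4 lower, against 29.0% and 29.9% of all tested genes. The median log2 fold change was 0.66 (0.00 over all tested genes). This median gives genes with means below 1 CPM in the GFP libraries the same weight as the others, so it does not show a general rise. Of the 6 that were higher, Steap4, Des and Cox4i2 had means of only 0.462, 0.813 and 0.324 CPM in the GFP libraries, and with at least 10 counts in every library 3 were higher and 4 lower. Notch3, a receptor of mural cells, fell from 41.4 ± 2.63 to 13.6 ± 2.35 CPM (SD, n = 4 per group), and Heyl, a target of Notch, fell from 21.5 ± 3.23 to 6.95 ± 1.66 CPM. Anpep, an aminopeptidase of pericytes and fibroblasts, rose from 41.4 ± 1.90 to 90.4 ± 5.56 CPM. Colec11 fell from 3.91 ± 0.363 to 1.44 ± 0.174 CPM. Kcnj8, Higd1b and Cox4i2, which mark pericytes closely in vivo, stayed below 1 CPM in every library, although Cox4i2 was among the 6 called higher. Pdgfrb stood above 1000 CPM in every library. Not all of the list was near 0. Tbx18 had 72.6 ± 4.22 CPM in the GFP libraries and 59.3 ± 1.07 in the OEIRF7 libraries (SD, n = 4 per group). The summed CPM of the list was between 179.8 and 194.8 in the GFP libraries and between 171.1 and 194.7 in the OEIRF7 libraries. Whether these cultures held pericytes was not tested, and Cspg4, Rgs5 and Mcam are described as single genes.

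Of the 11 fibroblast markers, 1 was higher (9.09%) and 7 lower (63.6%), against 29.0% and 29.9% of all tested genes. The median log2 fold change was -0.16. Tcf21, a transcription factor of resident fibroblasts, was lower, at 23.1 ± 3.49 CPM against 58.3 ± 6.13 with the control vector (SD, n = 4 per group), whereas Pdgfra, another marker of these cells, rose. Col3a1, Postn and Lum fell by 0.53, 0.38 and 0.35 on the log2 scale. Of the other receptor kinases of the PDGF receptor class, Kit and Csf1r had log2 fold changes of 0.17 and 0.06 and did not pass (adjusted p = 0.10 and 0.54, edgeR), and Flt3 had no count in any library.

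**Figure D5:**
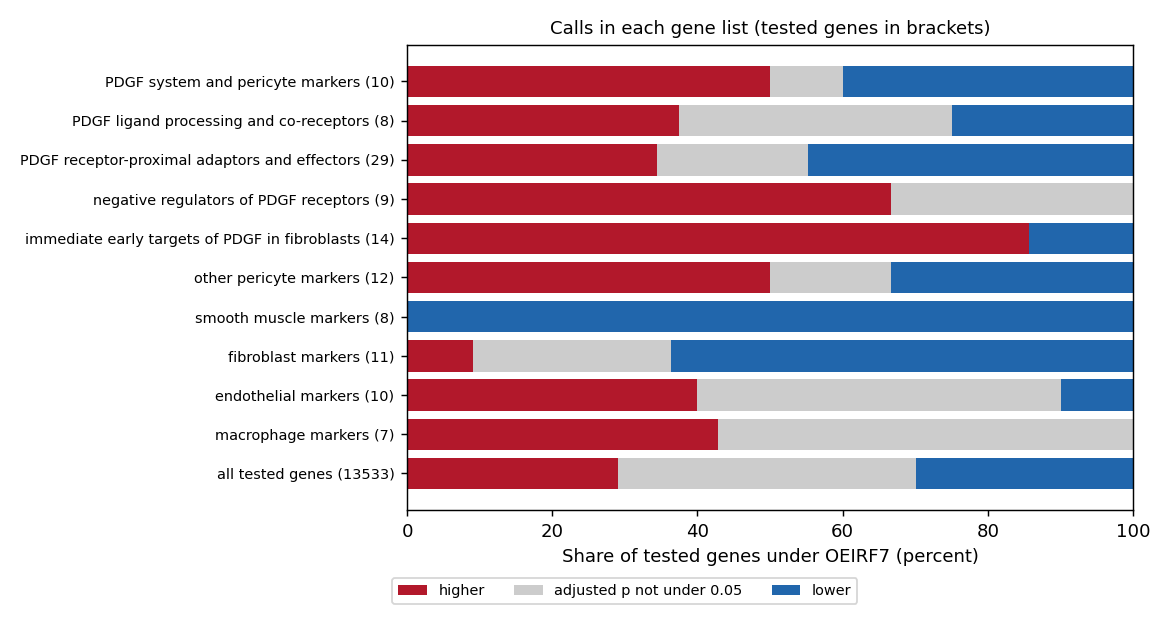
Share of the tested genes in each list that were higher (red), lower (blue) or had an adjusted p not under 0.05 (grey) in the OEIRF7 libraries (horizontal axis, percent; number tested in brackets; lists with at least 7 tested genes). The 8 smooth muscle markers were all lower and 12 of 14 immediate early genes higher, while the 10 genes described here split into 5 higher and 4 lower. Over all tested genes 29.0% were higher and 29.9% lower.

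The genes whose log2 CPM followed each receptor most closely over the 8 libraries were sought among 8897 genes of at least 10 CPM, as a description without a test. For Pdgfra these were Pacsin2, Insig2 and Ptprj, the last also on the list of genes that limit the receptors, with Pearson r of 0.986, 0.984 and 0.981. For Pdgfrb they were Srebf1, H2bc4 and Dguok, with r of 0.977, 0.977 and 0.975. The points share the libraries and the difference between the groups.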

How the data were processed

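RNA was sequenced from 8 libraries, 4 labelled GFP and 4 labelled OEIRF7, and groups were taken from the sample titles. The authors built stranded mRNA libraries per the study's methods (the labels name another kit), trimmed reads with Trimmomatic, mapped them to GRCm38 with HISAT2 and deposited HTSeq-count raw counts per gene. They also deposited FPKM from Cufflinks, normalized for length and depth and rounded. Tool versions and the strand setting of the counting were not given in the sources used here. Pdgfa, Pdgfc, Pdgfra and Mcam share exon bases with annotated genes on the opposite strand in GENCODE M21, and Pdgfra also with the same-strand gene Mir7025. Without the strand setting, it is not known whether reads of the opposite strand were counted for these genes. The columns with the authors' group means, fold change, p-value and FDR were not used. In 121 symbols the letters GFP stood in place of others, and the symbols were restored by Ensembl identifier.

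The test across genes was edgeR 4.0.16 in R 4.3.3, with filterByExpr, TMM scaling, glmQLFit and glmQLFTest without covariates, and Benjamini-Hochberg adjustment over the 13533 tested genes. Standard errors were derived from the coefficient and its F statistic, and 95% intervals from them. Sums and ratios of FPKM were compared by exact two-sided permutation tests in scipy 1.17.1. Counts of at least 91 lie behind every value of the 10 genes, so counting error is small for all but Rgs5 and Pdgfb. The fit was repeated with DESeq2 1.42.0, with upper-quartile scaling, without scaling factors, with a looser filter (at least 1 count in total) and a stricter one (at least 10 in each library), with replicate number as blocking term, without each library, and with limma 3.58.1 on FPKM after adding 1 or 0.1 and taking log2, where the mean FPKM was over 0.1. The tests across genes, but not the permutation tests, were also run on simulated counts. There far fewer genes changed than were called here, so the simulation does not check the tests under changes as widespread as these.

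The genes, the lists and the sums of ligand and receptor FPKM were chosen with earlier results of these data known. Named are the 10 genes, from each list up to 4 called genes of at least 1 CPM with the largest changes, Irf7, and for each receptor the 3 genes most like it. Plat, Srf, Dusp1, Cdh5, Kit, Csf1r, Flt3, Kcnj8, Higd1b, Cox4i2, Steap4, Des, Tbx18 and Fn1 were named after their values were seen.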

Additional observations from a re-analysis of the deposited data

How the results depend on the processing

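The 9 calls kept their direction under the 16 alternatives. Pdgfb was the only one to lose significance, in 3 of the fits without 1 library, with log2 fold changes of 0.27, 0.24 and 0.25. Over all the fits without 1 library its log2 fold change ranged from 0.24 to 0.41. Same-numbered libraries of the groups deviated together only weakly, with correlations of 0.0792, 0.0953, 0.138 and 0.104 for replicates 1 to 4, so the numbers were not taken as pairs, although each library correlated best with its own number. With the replicate number as a block, 5 of the 10 genes were higher and 4 lower, as without it. The block changed the adjusted p of Pdgfra from 0.0025 to 2.1e-05 and that of Pdgfrb from 0.0023 to 0.00016 (edgeR). For Pdgfc it went the other way, from 1.5e-07 to 2.6e-07 (edgeR). For the ratio of Pdgfra to Pdgfrb and for the summed ligand FPKM, the replicate block gave differences of 0.34 and -0.43 with an exact p of 0.125, the smallest that 4 pairs allow. Without 1 library at a time these differences ranged from 0.29 to 0.38 and from -0.46 to -0.41, with an exact p of 0.0571, the smallest that 3 against 4 allow. The sum of Pdgfa and Pdgfc had a difference of -0.00 on CPM, which is not per length. With at least 10 counts in every library, 3 of the other pericyte markers were higher instead of 6, since fewer genes were tested. Rgs5 and Pdgfb rest on the fewest counts.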
